A study of Arabidopsis thaliana with 24 samples.

Results

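A set of 22 Arabidopsis genes stood far lower in seedlings of a triple mutant labelled e2fa e2fb e2fc, written e2f below, than in wild type and in a pair of btl1 mutants. The 22 genes were drawn from 33612 counted features. A gene was a member if its mean level was at least 5 CPM, reads per 1000000 counted reads of the library, in each of Col-0 wild type (WT), btl1 and bte1 btl1, if each of these means was at least 4 times the e2f mean, and if every e2f library lay below every library of the other 3 genotypes. Of the 33612 features, 15140 reached 5 CPM in all 3 of those genotypes. The members were thus chosen for their low level in e2f, and their e2f values are a description that supports nothing and carries no test.

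The RNA came from whole seedlings harvested at 9 days under constant white light, with 3 replicates of each of 8 genotypes. The genotypes were e2f, bte1 hid1, hid1 phil1, hid1, bte1, bte1 btl1, btl1 and WT. The hid1, bte1 and btl1 names stand for single mutants and bte1 hid1 and bte1 btl1 for doubles, while hid1 phil1 is a hid1 mutant with a mutated proximal promoter of HIL1. The labels named no alleles, and they gave neither the time of day of harvest nor the number of plants in a replicate. In whole seedlings, fewer cells of a type and less RNA per cell cannot be told apart.

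E2F proteins are transcription factors that bind DNA with a DP partner and control genes of DNA synthesis and the cell cycle. In Arabidopsis the retinoblastoma-related protein RBR1 binds E2F proteins and holds their targets back, and E2F, RBR1 and MYB-type proteins also meet in the DREAM complexes. E2FA and E2FB are best known as activators, and E2FC is best known as a repressor of the division genes in cells that have stopped dividing.

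Transcripts of the genes named in the triple mutant were still counted. E2FA averaged 31.9 ± 5.17 CPM in e2f, against 8.76 ± 0.151 CPM in WT (SD, n = 3 each, as for all means here), a called increase, where a call is an adjusted p under 0.05 (log2 difference of 1.82, edgeR quasi-likelihood test with Benjamini-Hochberg adjusted p = 4.89e-12). E2FC averaged 48.5 ± 5.10 CPM in e2f, against 11.5 ± 0.938 CPM in WT (log2 difference of 2.04, edgeR adjusted p = 6.05e-14). E2FB, at 5.66 ± 0.832 CPM in e2f and 6.80 ± 0.893 CPM in WT, did not pass the test (log2 difference of -0.31, edgeR adjusted p = 0.0636), although it did when WT replicate 2 or e2f replicate 2 was left out. RBR1 averaged 155 ± 3.26 CPM in e2f, against 53.7 ± 0.226 CPM in WT (log2 difference of 1.49, edgeR adjusted p = 5.68e-16). Counts over whole genes do not show which part of a transcript remained, so these values do not check the genotype, and each direction below rests on the label.

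Total counted reads were 21270487 to 21885875 in the e2f libraries and 14309396 to 23912716 over all 24 libraries. The btl1 libraries held 15092335 to 15227469 reads and the bte1 btl1 libraries 14309396 to 15424866. Every library of the other genotypes held 19309154 or more, so this difference in depth cannot be told apart from genotype. A count of 0 over the e2f libraries allows a level of up to 0.0461 CPM (3 reads over the group, covering counting error only). The e2f libraries were spread more widely than those of most genotypes. In replicate pairs the chi-square of the counts per degree of freedom was 15.2 to 33.0 in e2f, 4.64 to 20.13 in hid1 phil1 and 2.80 to 10.3 in the others, and in hid1 phil1 the pairs with replicate 2 were the widest. Among marker lists, 5 leaf genes summed to 18563, 18298 and 13480 CPM in e2f replicates 1, 2 and 3, against 23304 to 24709 CPM in WT, and none was at 0. The 18 root markers summed to 238 to 263 CPM in e2f and 254 to 296 CPM in WT, with none at 0, and the 10 matched flower and pollen markers to 27.4 to 32.6 CPM in e2f and 10.8 to 16.4 CPM in WT, with 2 markers unread in each. The 11 matched seed markers summed to 6.77 to 80.8 CPM in e2f and 2.34 to 3.35 CPM in WT, where 4 had no read. High sums of the seed markers were not particular to e2f, with 4.37 to 59.5 CPM in btl1, 5.09 to 78.7 CPM in bte1 btl1 and 4.12 to 71.3 CPM in hid1. Sums are led by abundant genes. In a list of 23 root cell type genes, edgeR called 1 higher, 10 lower and 12 neither in e2f against WT, with a median log2 difference of -0.46. In a list of 26 photosynthesis and chlorophyll genes it called 0 higher, 22 lower and 4 neither. Over all genes tested, 26.4% were called higher and 25.8% lower. All these markers and lists describe the libraries only. Their part in the results was not tested.

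**Figure D1:**
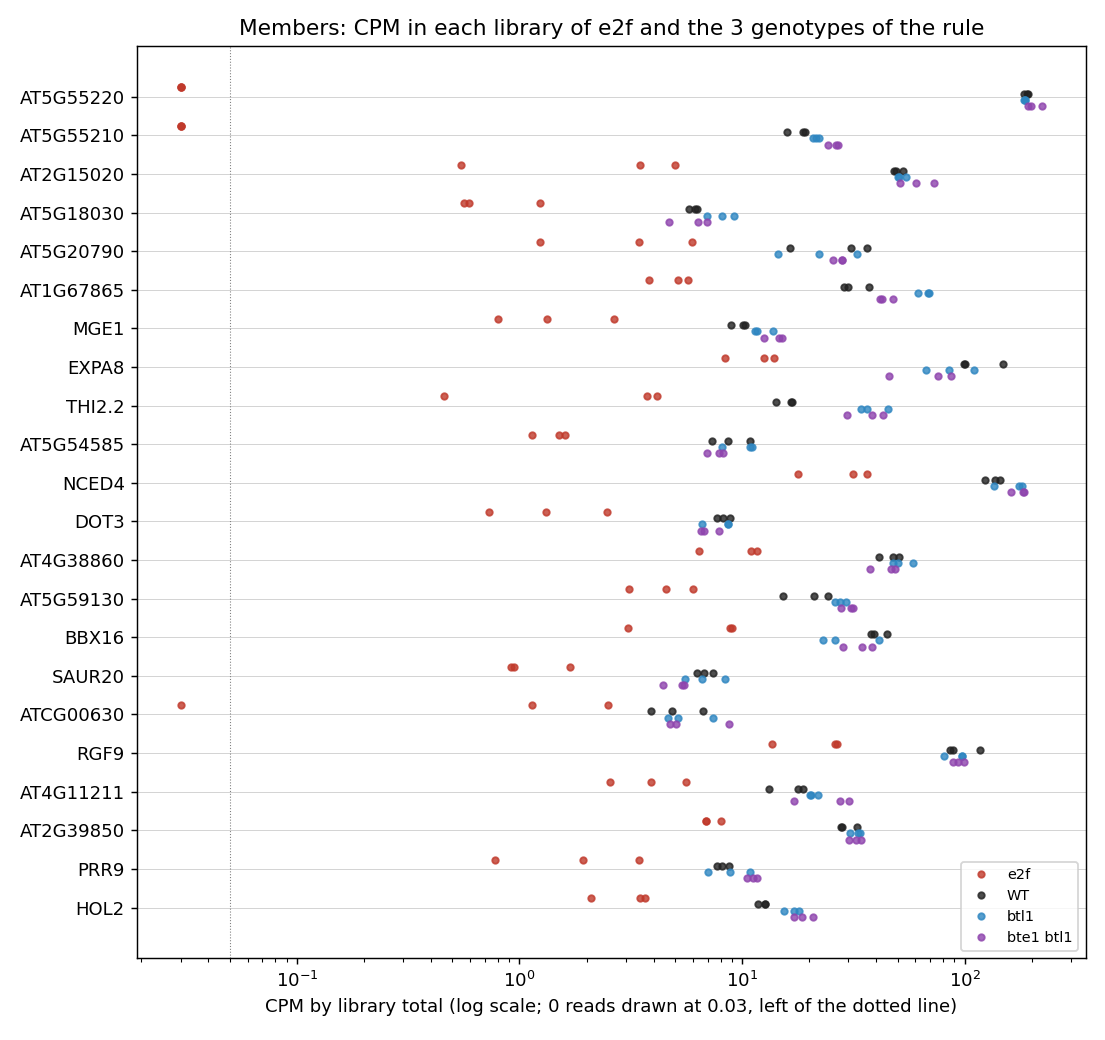
Level of the 22 members (rows) in each library of e2f, WT, btl1 and bte1 btl1, in CPM by library total on a log scale; each point is 1 library and libraries with 0 reads are drawn at 0.03. AT5G55220 and AT5G55210 had no read in any e2f library, and in every member the e2f points lie left of all others, as the choice of members requires.

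The low e2f levels spanned a wide range. A pair of members had no e2f read at all, and in the other 20 the lowest of the ratios over the e2f mean ran from 4.01 to 16.7, with a median of 4.64. The median log2 difference of the 22 members between e2f and WT was -2.52, beside 0.03 over all 21897 genes tested on the same scale, and it is a value the choice of members fixes. The WT means of the members ran from 5.14 to 189 CPM, with a median of 19.1 CPM. Scaled by gene length as well, in the authors' FPKM (fragments scaled by gene length and library), they ran from 4.29 FPKM for DOT3 to 162 FPKM for RGF9, with a median of 24.3 FPKM. At the limit of the set stood HOL2 and PRR9, each at 4.01 times the e2f mean, and AT2G39850 at 4.07 times. Just outside it, by the lowest ratio, stood AT1G66100 at 3.90 times, AT5G06790 at 3.85 times and CDF3, a DOF-type transcription factor, at 3.85 times. Their means were 2.68, 1.85 and 11.99 CPM in e2f and 42.5, 7.14 and 50.8 CPM in WT. The lowest ratio came from bte1 btl1, at 10.5 CPM, for AT1G66100, from WT for AT5G06790 and from btl1, at 46.1 CPM, for CDF3.

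Of the 22 members, 11 lie on chromosome 5, 5 on chromosome 2, 3 on chromosome 4 and 2 on chromosome 1, while ATCG00630 was not matched to the reference annotation (TAIR10.1, used for names and gene order only). Among those with a name or a known family are auxin-responsive and growth genes, a clock gene and regulators, enzymes, a defence peptide and proteases. For 6 members the annotation gives an uncharacterized protein.

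The members that stood lowest in e2f lie next to each other. AT5G55220, annotated as a trigger factor type chaperone family protein, a class that helps new proteins fold, had 0 reads in all 3 e2f libraries, against 189.6, 193 and 185 CPM in WT. It had 188, 186 and 185 CPM in btl1 and 224, 193 and 198 CPM in bte1 btl1. The WT level was therefore at least 4099-fold higher than the e2f level, and in FPKM it averaged 103 in WT and 0 in e2f. The neighbouring AT5G55210, an uncharacterized gene, also had 0 reads in all 3 e2f libraries, against 18.8, 15.9 and 19.3 CPM in WT, 22.3, 21.5 and 20.7 CPM in btl1 and 26.97, 26.3 and 24.3 CPM in bte1 btl1. Its WT mean was at least 389.9-fold higher. These were the only 2 of the 15140 genes at 5 CPM or more in those 3 genotypes with no read in e2f.

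The third gene of the run, MGE1, encodes a mitochondrial GrpE co-chaperone, which resets the mitochondrial HSP70 chaperone. It had 0.799, 1.33 and 2.65 CPM in e2f, from 17, 29 and 58 reads, against 10.3, 8.92 and 10.1 CPM in WT. It had 13.7, 11.7 and 11.4 CPM in btl1 and 14.6, 15.2 and 12.5 CPM in bte1 btl1. MGE1 was low in all 3 e2f libraries and, unlike most members, highest in replicate 3. The MGE1 and AT5G55210 gene models overlap on opposite strands in TAIR10.1, and the strand used in counting was not stated, so reads in the overlap could count for either gene.

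The 5 counted genes on each side of the run, chosen by position after the values were seen, did not share its pattern evenly. In e2f against WT, 52.2% of all genes tested were called with edgeR's quasi-likelihood test (adjusted p under 0.05). On the AT5G55220 side, the next gene MAP65-1, which bundles microtubules, averaged 22.7 ± 1.22 CPM in e2f and 83.7 ± 2.41 CPM in WT (log2 difference of -1.92, adjusted p = 4.38e-16, edgeR). Beyond it, IAMT1, which methylates the auxin indole-3-acetic acid, averaged 0.709 ± 0.298 CPM in e2f and 4.49 ± 1.5003 CPM in WT (log2 difference of -2.70, adjusted p = 2.77e-08), and PPX2, a protein phosphatase subunit, 10.9 ± 1.23 CPM in e2f and 23.1 ± 1.53 CPM in WT (log2 difference of -1.13, adjusted p = 9.96e-10). Both were called lower by the same test, while AT5G55270, at 0.974 ± 0.502 CPM in e2f and 0.142 ± 0.133 CPM in WT, was called higher (log2 difference of 2.67, adjusted p = 5.10e-04). ATPXG2 had 0.123 CPM in e2f and 0 CPM in WT and was not tested.

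On the MGE1 side no gene was called lower. RAN3, a small GTPase of nuclear transport, averaged 102 ± 15.4 CPM in e2f and 90.7 ± 4.41 CPM in WT (edgeR adjusted p = 0.197), and SUMO2, a protein modifier, 37.7 ± 4.96 CPM in e2f and 35.4 ± 1.98 CPM in WT (edgeR adjusted p = 0.677). SUMO3 averaged 1.76 ± 0.637 CPM in e2f and 1.69 ± 0.425 CPM in WT (edgeR adjusted p = 0.982). AT5G55180 was called higher, at 71.0 ± 17.3 CPM in e2f and 42.6 ± 2.72 CPM in WT (log2 difference of 0.70, adjusted p = 1.59e-04, edgeR). So was AT5G55150, at 0.756 ± 0.289 CPM in e2f and 0.161 ± 0.211 CPM in WT (log2 difference of 2.16, adjusted p = 0.0208, edgeR), a call lost under 4 of 11 alternative settings. In annotated order, e2f was thus low at MGE1 and at 0 reads in the next 2 genes. Beyond these the log2 difference was -1.92 at MAP65-1, -2.70 at IAMT1 and -1.13 at PPX2, while AT5G55270 was called higher. Over all genes tested, 25.8% were called lower. Whether the low levels of these neighbours are linked was not tested.

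**Figure D2:**
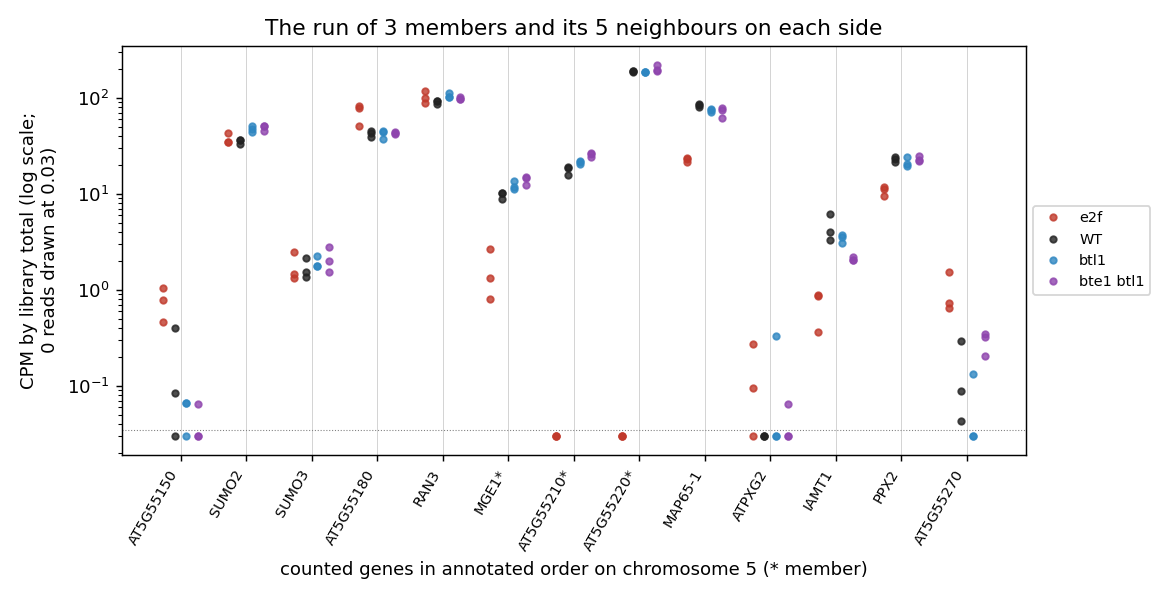
Level of the 3 adjacent members (marked *) and of the 5 counted genes on each side, in annotated order on chromosome 5, in each library of e2f, WT, btl1 and bte1 btl1 (CPM by library total, log scale, 0 reads drawn at 0.03). AT5G55210 and AT5G55220 had 0 reads in e2f only, MAP65-1 averaged 22.7 CPM in e2f and 83.7 CPM in WT, and RAN3 and SUMO2 lay at like levels in both.

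A further group of members consists of SAUR genes, which encode small proteins made quickly after auxin and known for promoting cell expansion. AT5G18030, for which the annotation lists SAUR21 as a synonym, had 0.564, 1.23 and 0.594 CPM in e2f, against 6.15, 5.77 and 6.26 CPM in WT, 6.96, 9.19 and 8.08 CPM in btl1 and 4.68, 6.36 and 6.94 CPM in bte1 btl1. Its neighbour SAUR20 had 0.940, 1.69 and 0.914 CPM in e2f, against 6.77, 7.41 and 6.26 CPM in WT, 5.52, 8.34 and 6.63 CPM in btl1 and 4.40, 5.38 and 5.51 CPM in bte1 btl1. Both were at or near 1 CPM in e2f and at several CPM elsewhere. AT4G38860, also listed as SAUR16, was more abundant, with 11.6, 10.9 and 6.40 CPM in e2f, against 47.7, 41.3 and 50.7 CPM in WT. Its means were 52.1 ± 5.57 CPM in btl1 and 44.4 ± 5.85 CPM in bte1 btl1. SAUR19 to SAUR24 are near-identical copies, so how their reads were divided among them is uncertain.

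In a list of auxin response genes, 18 tested non-members comprised 2 called higher, 13 called lower and 3 not called in e2f against WT, with a median log2 difference of -1.16, beside 26.4% called higher and 25.8% called lower over all genes. The 5 SAUR genes among these 18 (SAUR15, SAUR19, SAUR22, SAUR23 and SAUR24), grouped after the values were seen, were each called lower by edgeR, and SAUR genes outside the list were not examined apart from AT4G38860. Reads of SAUR19, SAUR22, SAUR23 and SAUR24 may be shared with the members SAUR20 and AT5G18030. Their calls, also within the 13 called lower, may therefore not be separate from the choice of members. SAUR24 averaged 0.800 ± 0.0682 CPM in e2f and 5.13 ± 0.848 CPM in WT (log2 difference of -2.71, adjusted p = 2.61e-09, edgeR), and SAUR22 0.170 ± 0.0727 CPM in e2f and 2.13 ± 0.228 CPM in WT (log2 difference of -3.65, adjusted p = 7.06e-07, edgeR). PIN7, an auxin efflux carrier, also fell, with 100.04 ± 11.0 CPM in e2f and 191 ± 26.2 CPM in WT (log2 difference of -0.98, adjusted p = 1.64e-07, edgeR). GH3.3, which conjugates auxin to amino acids, rose, with 45.5 ± 13.8 CPM in e2f and 10.5 ± 0.240 CPM in WT (log2 difference of 2.07, adjusted p = 9.34e-11, edgeR). These lists were chosen with earlier results of the same libraries known and are no independent evidence of a direction.

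EXPA8, an expansin that loosens cell walls, had 12.6, 13.9 and 8.36 CPM in e2f, against 99.7, 100.3 and 149 CPM in WT. It had 66.9, 110.3 and 84.9 CPM in btl1 and 45.9, 86.4 and 75.9 CPM in bte1 btl1. The WT mean was 10.01 times the e2f mean, and the btl1 libraries overlapped those of WT and of bte1 btl1, which did not overlap each other. Of 17 tested non-members in a list of wall expansion genes, 7 were called higher, 8 lower and 2 neither, with a median log2 difference of 0.06, beside 26.4% of all genes called higher and 25.8% lower. Grouped by family after the values were seen, the 5 expansins among these 17 were each called lower, while of the 11 XTH enzymes in the list, which cut and join xyloglucan, 6 were called higher, 3 lower and 2 neither. EXPA1 averaged 112 ± 16.1 CPM in e2f and 408 ± 20.6 CPM in WT (log2 difference of -1.91, adjusted p = 6.56e-13, edgeR). Of the XTH enzymes, TCH4 (XTH22), XTH16 and XTH19 were called higher, TCH4 the most of these 3, with 329 ± 28.0 CPM in e2f and 14.1 ± 4.02 CPM in WT (log2 difference of 4.50, adjusted p = 9.22e-16, edgeR). XTH16 averaged 102 ± 5.08 CPM in e2f and 44.4 ± 1.45 CPM in WT (log2 difference of 1.16, adjusted p = 2.14e-11), and XTH19 35.2 ± 2.83 CPM in e2f and 13.4 ± 1.05 CPM in WT (log2 difference of 1.35, adjusted p = 2.48e-10), both by edgeR.

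A pair of members are linked to organ patterning and growth. RGF9, also called GOLVEN 2, encodes a secreted peptide of the root meristem growth factor family and had 26.3, 26.7 and 13.7 CPM in e2f, against 88.3, 86.3 and 118 CPM in WT. Its means were 91.9 ± 9.71 CPM in btl1 and 93.8 ± 5.34 CPM in bte1 btl1, and per length it was the most abundant member in WT. DOT3, an NPH3-family protein known from defects in leaf vein pattern, had 1.32, 2.47 and 0.731 CPM in e2f, against 7.69, 8.25 and 8.79 CPM in WT, with means of 7.94 ± 1.14 CPM in btl1 and 7.05 ± 0.692 CPM in bte1 btl1. Both had their lowest e2f value in replicate 3.

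PRR9, a pseudo-response regulator that represses the morning clock genes CCA1 and LHY, had 3.43, 1.92 and 0.777 CPM in e2f, against 8.15, 7.72 and 8.70 CPM in WT. It had 8.80, 10.8 and 7.02 CPM in btl1 and 10.5, 11.7 and 11.2 CPM in bte1 btl1. The 3 e2f libraries differed among themselves by more than the WT libraries did. Of the 12 other clock genes tested, 0 were called higher, 7 lower and 5 neither in e2f against WT by edgeR, with a median log2 difference of -0.62, beside 26.4% of all genes called higher and 25.8% lower. Those called lower include AT5G64170 (LNK1), at 21.2 ± 7.88 CPM in e2f and 54.1 ± 0.410 CPM in WT (log2 difference of -1.40, adjusted p = 1.19e-06), and AT3G54500 (LNK2), at 165 ± 42.2 CPM in e2f and 316 ± 33.0 CPM in WT (log2 difference of -0.99, adjusted p = 6.42e-06), coactivators of PRR genes, both tested with edgeR. The activator RVE8, at 37.4 ± 9.28 CPM in e2f and 59.2 ± 4.83 CPM in WT (log2 difference of -0.70, adjusted p = 8.52e-06), and GI, a clock and flowering regulator, at 25.0 ± 4.15 CPM in e2f and 48.5 ± 2.61 CPM in WT (log2 difference of -1.001, adjusted p = 1.44e-05), were also called lower by edgeR. CCA1 was called lower as well, at 68.1 ± 25.2 CPM in e2f and 135 ± 3.48 CPM in WT (log2 difference of -1.03, adjusted p = 4.51e-05, edgeR). So was LHY, at 157 ± 50.4 CPM in e2f and 230 ± 14.8 CPM in WT (log2 difference of -0.60, adjusted p = 0.00306, edgeR). Whether the libraries were harvested at one time of day was not given, and its part in these values was not tested.

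BBX16, a B-box transcription factor also known as COL7, had 9.03, 8.78 and 3.06 CPM in e2f, against 38.1, 39.3 and 44.7 CPM in WT. It had 26.2, 41.0 and 23.2 CPM in btl1 and 28.4, 34.5 and 38.2 CPM in bte1 btl1. Its lowest library outside e2f, btl1 replicate 3, stood at 23.2 CPM, against 9.03 CPM in the highest e2f library.

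The remaining named members are a pair of enzymes and a defence peptide. NCED4, also called CCD4, cleaves carotenoids and had 36.6, 31.6 and 17.9 CPM in e2f, against 137, 123 and 144 CPM in WT, with means of 164 ± 24.8 CPM in btl1 and 177 ± 12.6 CPM in bte1 btl1. Its e2f mean of 28.7 CPM was the highest of any member. THI2.2, a thionin, a small antimicrobial peptide, had 4.14, 3.75 and 0.457 CPM in e2f, against 16.6, 14.1 and 16.7 CPM in WT, 36.3, 45.2 and 34.3 CPM in btl1 and 43.1, 29.6 and 38.4 CPM in bte1 btl1. In THI2.2, e2f replicate 3 stood far below the other e2f libraries. HOL2, an S-adenosylmethionine-dependent methyltransferase, had 3.48, 3.66 and 2.102 CPM in e2f, against 12.6, 12.6 and 11.7 CPM in WT, 15.4, 17.1 and 18.0 CPM in btl1 and 17.2, 20.8 and 18.6 CPM in bte1 btl1. Its WT libraries were close together, while its highest e2f library was 1.74 times its lowest.

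A pair of members are annotated as subtilisin-like serine proteases. AT2G39850 had 6.86, 8.004 and 6.90 CPM in e2f, against 28.1, 27.7 and 32.7 CPM in WT, and its highest e2f library was 1.17 times its lowest, the smallest such spread among the 20 members with e2f reads. AT5G59130 had 4.56, 5.99 and 3.11 CPM in e2f, against 21.03, 15.3 and 24.3 CPM in WT, with means of 27.7 ± 1.48 CPM in btl1 and 30.05 ± 2.02 CPM in bte1 btl1. AT2G39850 averaged 32.5 ± 1.78 CPM in btl1 and 32.4 ± 1.99 CPM in bte1 btl1, and its WT libraries overlapped those of both.

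The uncharacterized members include the lowest e2f level relative to the other genotypes apart from the pair without reads. AT2G15020 had 4.98, 3.48 and 0.548 CPM in e2f, against 48.4, 48.9 and 52.7 CPM in WT, 50.8, 54.6 and 50.1 CPM in btl1 and 72.9, 51.0 and 60.2 CPM in bte1 btl1, so that the WT mean was 16.7 times the e2f mean. Its highest e2f library was 9.09 times its lowest, the widest spread of the 19 members read in all 3 e2f libraries. AT1G67865 had 3.81, 5.72 and 5.16 CPM in e2f, against 28.7, 29.8 and 37.2 CPM in WT, 69.2, 61.5 and 68.6 CPM in btl1 and 41.6, 42.4 and 47.5 CPM in bte1 btl1, with the 4 genotypes apart from one another. AT5G20790 varied within genotypes, with 5.97, 3.43 and 1.23 CPM in e2f, against 36.3, 30.8 and 16.4 CPM in WT and 22.1, 14.4 and 33.0 CPM in btl1. AT4G11211 had 5.59, 3.89 and 2.56 CPM in e2f, against 18.7, 13.2 and 17.8 CPM in WT. AT5G54585 had 1.598, 1.51 and 1.14 CPM in e2f, against 8.66, 7.32 and 10.9 CPM in WT. ATCG00630, the feature not matched to the reference, had 2.49, 1.14 and 0 CPM in e2f, against 4.85, 6.65 and 3.92 CPM in WT, and stayed under 10 CPM in every library. It also varied widely elsewhere, from 0.0863 to 6.77 CPM within hid1 phil1 and from 0.809 to 4.50 CPM within bte1.

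The 3 e2f libraries did not contribute alike. Among the 20 members with e2f reads, replicate 3 held the lowest e2f value in 16, replicate 1 in 4 and replicate 2 in 0. Over all genes at 5 CPM or more in the other 3 genotypes, replicate 3 held the lowest value in 39.1%, replicate 1 in 35.5% and replicate 2 in 25.4%. Replicate 3 was also the e2f library with the lowest sum of leaf markers, and the part of that difference in the members' values was not tested. Without replicate 3, only 10 genes met the criteria, all among the 22, and the other 12 members lay at 2.83 to 3.97 times the e2f mean. The 10 were AT5G55220, AT5G55210, MGE1, AT2G15020, AT5G18030, AT5G20790, AT1G67865, EXPA8, THI2.2 and AT5G54585. Without replicate 1 there were 32 genes, 20 of them among the 22.

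In 21 of the 22 members every e2f library also lay below all 12 libraries of bte1 hid1, hid1 phil1, hid1 and bte1, the 4 genotypes that the choice did not use. Of the 15140 genes at 5 CPM or more in WT, btl1 and bte1 btl1, 14% did so, but the members' e2f values are the ones they were chosen by, and nothing is read from their count. The exception was ATCG00630, with as little as 0.0863 CPM in hid1 phil1 replicate 2 and 0.0875 CPM in bte1 hid1 replicate 3. Requiring a 4-fold difference in these 4 genotypes as well left 12 members. The other 10 fell short by their lowest mean, such as PRR9, whose bte1 hid1 mean of 6.11 ± 0.883 CPM was 2.99 times the e2f mean, and HOL2, whose hid1 mean of 9.75 ± 1.77 CPM was 3.17 times it.

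**Figure D3:**
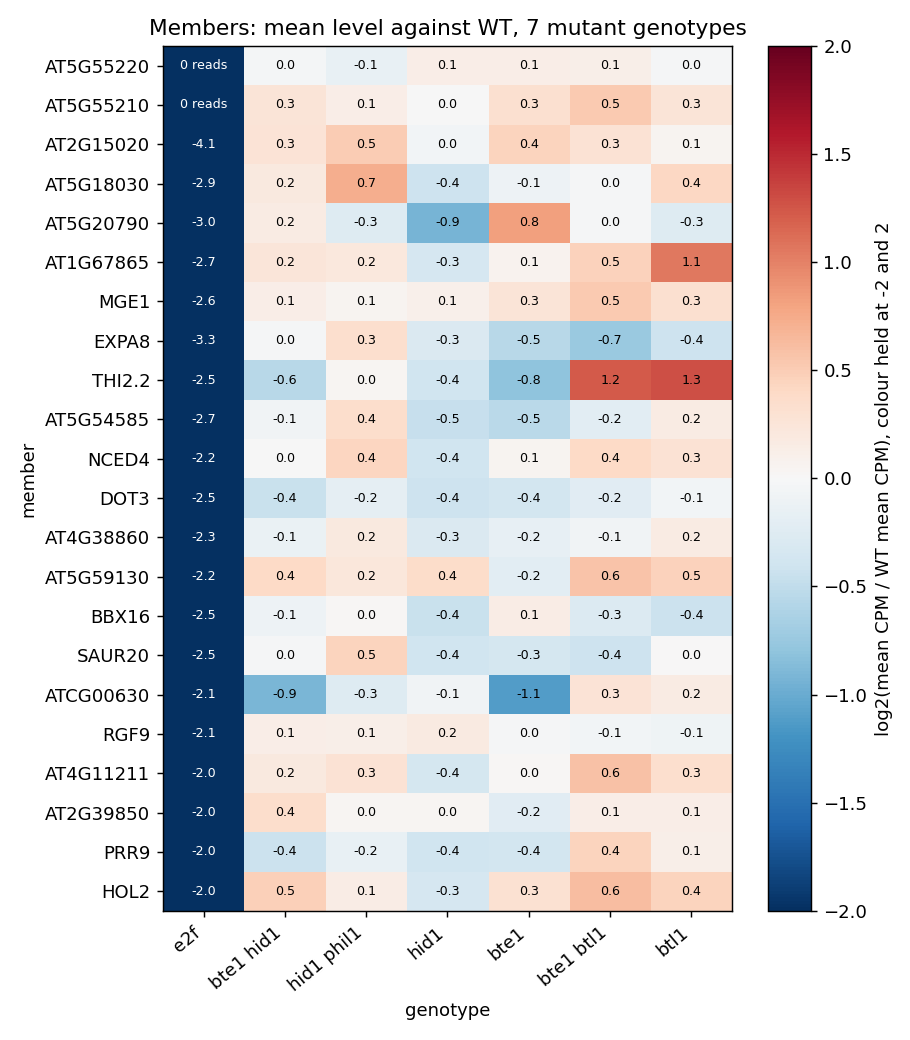
Mean level of each member in the 7 mutant genotypes against WT, as the log2 ratio of mean CPM (3 libraries each), with the colour held at -2 and 2; AT5G55220 and AT5G55210 had 0 reads in e2f. The e2f column is at -2.0 or below throughout because the members were chosen so, while AT1G67865 and THI2.2 stand above WT in btl1.

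Comparisons without e2f test how the members behaved in mutants whose contrasts did not choose them, although the WT, btl1 and bte1 btl1 libraries did enter the choice by their level. In hid1 against WT, edgeR's quasi-likelihood test called 0 of the 22 members, beside 3.44% of all genes tested (1.73% higher and 1.72% lower), with 5 members at an unadjusted p under 0.05, a smallest adjusted p of 0.148 and 0 called by DESeq2. Without hid1 replicate 1 the count was 1. The members' values were below 0 in 17 and above 0 in 5, with a median log2 difference of -0.34, beside 0.00 over all genes. In bte1 against WT edgeR also called 0 members, beside 2.52% of all genes (1.89% higher and 0.63% lower), with 5 at an unadjusted p under 0.05, a smallest adjusted p of 0.0886, 0 called by DESeq2 and a median log2 difference of -0.08, beside 0.00 over all genes.

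Adding phil1 to hid1 moved the most members. In hid1 phil1 against hid1, edgeR called 7 members higher and 1 lower, beside 3.53% of all genes called higher and 2.92% lower, or 6.45% in all. The members' median log2 difference was 0.49, beside -0.01 over all genes, and 17 of 22 values were above 0. The comparison of hid1 with WT, where the median was -0.34 and 17 values lay below 0, uses the same hid1 libraries. These opposite shifts are therefore not independent. AT5G18030 (SAUR21) had 9.77, 11.5 and 8.63 CPM in hid1 phil1, against 5.38, 5.45 and 2.85 CPM in hid1, with no overlap (log2 1.16, SE 0.23, adjusted p = 0.00353, edgeR). SAUR20 beside it had 8.62, 10.5 and 8.86 CPM in hid1 phil1, against 6.51, 5.10 and 3.99 CPM in hid1 (log2 0.87, SE 0.19, adjusted p = 0.00639, edgeR). Beside this comparison, the seed markers summed to 1.80 to 3.54 CPM in hid1 phil1 and 4.12 to 71.3 CPM in hid1. The leaf markers summed to 22112 to 27056 CPM in hid1 phil1 and 21805 to 22851 CPM in hid1. The root markers summed to 288 to 302 CPM in hid1 phil1 and 237 to 262 CPM in hid1, without overlap. The part of these markers in the comparison was not tested. Both SAUR genes were higher in all 3 hid1 phil1 libraries than in any hid1 library.

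The uncharacterized AT5G54585 had 10.2, 12.1 and 12.2 CPM in hid1 phil1, against 6.77, 7.60 and 5.13 CPM in hid1 (log2 0.85, SE 0.17, adjusted p = 0.00378, edgeR). NCED4, the carotenoid-cleaving enzyme, had 154, 199 and 194 CPM in hid1 phil1, against 102, 98.7 and 106 CPM in hid1 (log2 0.86, SE 0.18, adjusted p = 0.00864, edgeR). In both the genotypes did not overlap, with hid1 phil1 the higher. The calls of AT5G18030 and AT5G54585 held in all 11 alternative settings. SAUR20 lost its call only without hid1 replicate 3 (edgeR adjusted p = 0.058) and NCED4 only without hid1 phil1 replicate 2 (edgeR adjusted p = 0.053).

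The other 4 calls were weaker. HOL2 averaged 13.6 ± 0.634 CPM in hid1 phil1 and 9.75 ± 1.77 CPM in hid1 (log2 0.51, SE 0.14, adjusted p = 0.0276, edgeR). AT4G38860 (SAUR16) averaged 53.2 ± 9.66 CPM in hid1 phil1 and 38.3 ± 2.58 CPM in hid1 (log2 0.49, SE 0.14, adjusted p = 0.0418, edgeR), and AT1G67865 36.9 ± 1.01 CPM in hid1 phil1 and 25.4 ± 7.58 CPM in hid1 (log2 0.57, SE 0.17, adjusted p = 0.0472, edgeR). AT5G55220 was the member called lower, with 188, 144 and 181 CPM in hid1 phil1, against 208, 199 and 216 CPM in hid1 (log2 -0.26, SE 0.08, adjusted p = 0.0425, edgeR). Each of these 4 lost its call in 5 to 8 of the 11 alternatives, AT5G55220 among others without hid1 phil1 replicate 2, its lowest library. The count of 8 calls was 4 without hid1 phil1 replicate 2 or 3 and 4 and 3 without hid1 replicates 2 and 3.

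**Figure D4:**
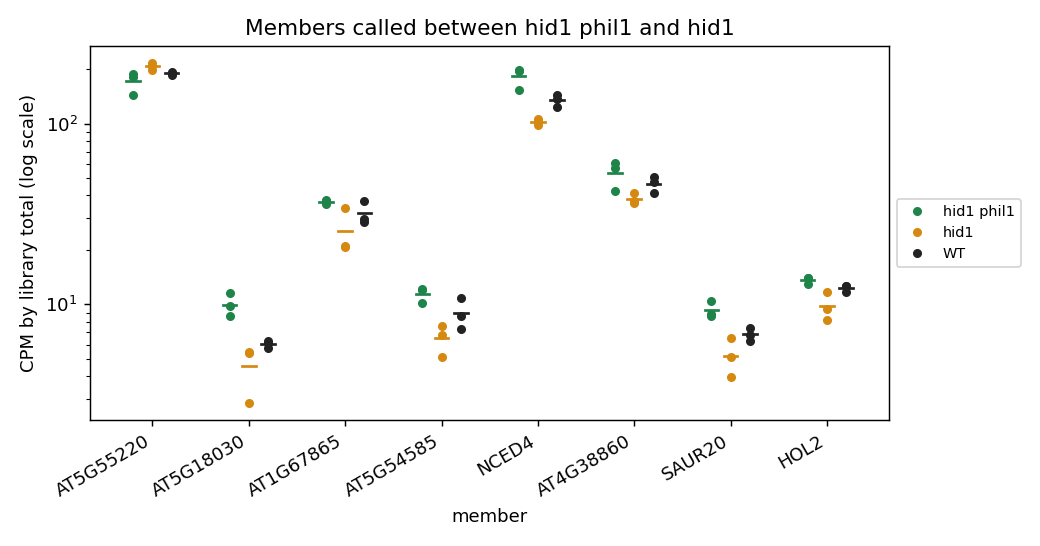
Level in CPM by library total (log scale) of the 8 members called between hid1 phil1 and hid1, with the WT libraries beside them; points are libraries and bars are means of 3. For 7 members the hid1 phil1 mean lies above the hid1 mean, most of all for AT5G18030, and for AT5G55220 it lies below.

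In bte1 hid1 against hid1, edgeR called HOL2 alone of the 22 members, higher, beside 7.43% of all genes called and 4.33% called higher. HOL2 had 18.9, 17.5 and 15.0 CPM in bte1 hid1, against 11.7, 9.40 and 8.18 CPM in hid1 (log2 0.78, SE 0.14, adjusted p = 6.24e-04, edgeR), and the call held in all 11 alternatives. The count was 3 without hid1 replicate 1 and 3 without bte1 hid1 replicate 2. The members' median log2 difference was 0.26, beside 0.01 over all genes, and 8 members had an unadjusted p under 0.05. The root markers summed to 285 to 311 CPM in bte1 hid1 and 237 to 262 CPM in hid1. The leaf markers summed to 19084 to 21136 CPM in bte1 hid1 and 21805 to 22851 CPM in hid1, and the seed markers to 1.58 to 2.78 and 4.12 to 71.3 CPM. The part of these markers was not tested. HOL2 was thus higher than in hid1 in both doubles that carry hid1, comparisons that share the hid1 libraries.

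In btl1 against WT, edgeR called 3 members higher and 0 lower, beside 17.3% of all genes called, 8.66% higher and 8.65% lower. The btl1 libraries held 15092335 to 15227469 counted reads and the WT libraries 22544462 to 23912716. This depth difference cannot be told apart from genotype here. AT1G67865 had 69.2, 61.5 and 68.6 CPM in btl1, against 28.7, 29.8 and 37.2 CPM in WT, with no overlap (log2 1.04, SE 0.17, adjusted p = 2.10e-04, edgeR), and its call held in all 11 alternatives. THI2.2, the thionin, averaged 38.6 ± 5.84 CPM in btl1 and 15.8 ± 1.46 CPM in WT (log2 1.27, SE 0.35, adjusted p = 0.0192, edgeR). HOL2 averaged 16.8 ± 1.32 CPM in btl1 and 12.3 ± 0.514 CPM in WT (log2 0.43, SE 0.14, adjusted p = 0.0311, edgeR). The calls of THI2.2 and HOL2 were lost in 3 and 5 of the 11 alternatives, and without WT replicate 2 only AT1G67865 was called. The seed markers summed to 4.37 to 59.5 CPM in btl1 and 2.34 to 3.35 CPM in WT, and their part was not tested. The members' median log2 difference was 0.14, beside 0.00 over all genes.

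In bte1 btl1 against btl1, edgeR called 0 members, beside 4.49% of all genes (3.37% higher and 1.12% lower), with 3 members at an unadjusted p under 0.05, a smallest adjusted p of 0.0549 and 1 called by DESeq2. AT1G67865 averaged 43.8 ± 3.16 CPM in bte1 btl1 and 66.5 ± 4.28 CPM in btl1 (log2 -0.56, SE 0.17, adjusted p = 0.0611, edgeR), without overlap between the libraries and short of the threshold. The members' median log2 difference was 0.15, beside 0.00 over all genes.

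The gene lists for tissues and pathways touch few members. Only SAUR20, AT5G18030, EXPA8 and PRR9 belong to any of the 28 lists. Over the lists, 294 of 432 tested non-members were called in e2f against WT by edgeR, 180 higher and 114 lower, beside 52.2% of all genes. In the list of DREAM complex and E2F family genes, which holds no member, 10 of 18 were called higher, 2 lower and 6 neither, with a median log2 difference of 0.47. Over all genes, 26.4% were called higher and 25.8% lower. E2FA, E2FC and RBR1 are among the 10 called higher. The low side of the 22 members was fixed by their choice, and a link between them and these genes was not tested.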

How the data were processed

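Poly(A) RNA libraries of 24 seedling samples were analysed. Per the labels' protocols, they were made with the TruSeq kit, and each genotype had 3 biological replicates, which p-values therefore compare. Per the submitters' processing notes, reads were handled with fastp, HISAT2 2.1.0 and SAMtools 1.6 on TAIR10; the counting tool and its strand setting are not given in the sources used here. The deposited count table holds the authors' raw counts of 33612 features. The FPKM table deposited by the authors was used only for levels per gene length, and FPKM were not tested. Columns were matched to samples by name, and those of hid1 phil1 through the sample titles. Names came from TAIR10.1 (28932 features matched), and no coordinates are given because the builds differ.

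Levels (CPM) are reads per 1000000 of the library total, which was 14309396 to 23912716 reads. Tests ran in R 4.3.3 with edgeR 4.0.16 on library sizes scaled by TMM (factors of 0.922 to 1.03), after a low-count filter by genotype (21897 genes tested, 11715 removed, all 22 members kept), with 1 fit of all 24 libraries, robust quasi-likelihood tests and Benjamini-Hochberg adjustment over all genes, with a call at an adjusted p under 0.05. The biological coefficient of variation was 0.106. A mean of 0 was replaced by a floor of 3 reads over the group. Members, lists and comparisons were chosen with earlier results of these data known. Named were all members, E2FA, E2FB, E2FC, RBR1, the 3 genes on each side of the limit, up to 4 non-members with the smallest adjusted p from each list that holds a member, and, added after the values were seen, the neighbours of the chromosome 5 run. CCA1 and LHY were also added after the values were seen and are not in the counts of named genes under alternatives. Alternatives were other limits and scalings for membership, DESeq2 1.42.0, no filter, only the 2 genotypes compared, a replicate block, and each replicate left out.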

Additional observations from a re-analysis of the deposited data

Results flagged for a closer look

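AT5G55220, the chaperone gene without reads in e2f, moved in opposite directions with bte1 in different backgrounds. It had 203, 206 and 209 CPM in bte1, against 189.6, 193 and 185 CPM in WT, and 179, 197 and 178 CPM in bte1 hid1, against 208, 199 and 216 CPM in hid1. Every bte1 library was above every WT library and every bte1 hid1 library was below every hid1 library. Taken as log2 ratios of mean CPM rather than edgeR values, the changes with bte1 differed by 0.295 between these backgrounds, and the difference was not tested. In the btl1 background it had 224, 193 and 198 CPM in bte1 btl1, against 188, 186 and 185 CPM in btl1, again without overlap and with bte1 btl1 the higher. The change in the hid1 background minus that in the btl1 background was -0.308, again as log2 ratios of mean CPM, and this difference was not tested either. None of the 3 changes with bte1 was called by edgeR on its own.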

How the results depend on the processing

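The number of genes meeting the criteria, 22 as set, was 222 at 2 times, 3 at 8 times, 49 with a mean level of 1 CPM, 12 with the other 4 genotypes added, 23 with TMM scaling and 10 to 32 with 1 library left out, lowest without e2f replicate 3. Counts of members called, by edgeR unless DESeq2 is named, changed as follows. With only the 2 genotypes fitted they were 3 for hid1 against WT, 2 for bte1 against WT and 2 for bte1 btl1 against btl1, where the fit of all libraries gave 0. With DESeq2 they were 2 for bte1 hid1 against hid1, 1 for bte1 btl1 against btl1 and 4 for btl1 against WT. Without the low-count filter, 5 members were called for hid1 phil1 against hid1. With 1 replicate left out they were 0 to 1 for hid1 against WT, 1 to 3 for bte1 hid1 against hid1, 3 to 6 for hid1 phil1 against hid1 and 1 to 3 for btl1 against WT. The 294 called genes of the lists became 264 to 304. Same-numbered replicates did not deviate together (correlations of -0.128 to 0.181, and no comparison with every pair over 0.1), so the numbers are not taken as pairs; with a replicate block, 6 members were called for hid1 phil1 against hid1 and 304 list genes. Of the values of named genes under alternatives, 331 stayed on the same side of the threshold, called or not, 41 lost a call, 2 gained one and 0 changed direction. Why the counts changed was not tested. Members with under 100 e2f reads over the group, such as SAUR20 and AT5G18030, have ratios limited by counting error.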
